A study of Homo sapiens with 12 samples.

Results

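The comparison described here sets co-cultures given both antibodies, anti-PD1 and anti-LAG3, here the combination, against co-cultures given anti-LAG3 plus an isotype control antibody, at the same dose of each antibody. It asks what adding anti-PD1 to anti-LAG3 did to RNA levels at each dose and on average. It uses 6 of the 12 libraries of the study, chosen by their treatment labels: the combination at 0.01, 0.1 and 1 µg/ml of each antibody and anti-LAG3 at 0.01, 0.1 and 1 µg/ml. The other 6 libraries, anti-PD1 plus isotype and isotype alone at the same 3 doses, entered the fits to share the estimate of spread and served for 1 further comparison. In all of them, Jurkat cells, a human T cell leukaemia line made to carry LAG3 and PD1, were cultured for 24 h with Raji cells, a human Burkitt lymphoma B cell line made to carry PDL1 and loaded with staphylococcal enterotoxin D at 100 ng/ml. The series names the antibodies MK4280 (anti-LAG3) and MK3475 (anti-PD1, known as pembrolizumab).

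PD1 and LAG3 are inhibitory receptors that T cells display after activation. PD1 binds PDL1 and recruits phosphatases that dampen signals from the T cell receptor (TCR) and CD28. LAG3 binds MHC class II and other ligands and weakens TCR signalling by a separate route. The enterotoxin bridges MHC class II on the B cell and the variable region of the TCR beta chain, so that many T cells are activated without a specific peptide. Genes switched on within hours by the TCR include the EGR and NR4A transcription factors, the surface protein CD69 and, later, cytokines and the high-affinity receptor for interleukin 2.

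Each condition had 1 library, made from wells pooled before RNA was extracted, and no label names a repeat culture. The 3 doses of an arm are therefore its only libraries, and p-values reflect how far these libraries vary, and that variation may be technical. The 3 combination libraries held 25808464 to 28709956 counts and the 3 anti-LAG3 libraries 25187375 to 31651624. RNA of both lines was read together, so fewer cells of a line and less RNA per cell cannot be told apart. Jurkat T cell markers, 25 tested, summed to 2039 to 2222 counts per 1e6 counts (CPM) in the combination and 2184 to 2311 CPM with anti-LAG3. Raji B cell markers, 30 tested, summed to 11005 to 11444 CPM in the combination and 10437 to 10596 CPM with anti-LAG3. No marker of either line was at 0 in all libraries. The marker balance, mean log2 CPM over T markers less that over B markers, was -1.33 ± 0.06 (SD, n = 3) in the combination and -1.16 ± 0.02 (SD, n = 3) with anti-LAG3. These differed by -0.166 (two-sided exact permutation test, p = 0.1, which 3 against 3 libraries cannot go below). The same balance ran from -1.40 to -1.36 with isotype alone and from -1.42 to -1.26 with anti-PD1 plus isotype. The part of this balance in the gene results was not tested beyond the fits with it as a covariate, which are given beside them. The combination and anti-LAG3 did not overlap in this balance, so these fits cannot fully set it apart from the arm. They are no test of the markers that make it up.

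RNA of both targets and of the PD1 ligand was measured in the same libraries. PDCD1, the gene of PD1 (minus strand of GRCh38 chromosome 2, 241849881 to 241858908), had 220, 195 and 215 CPM (0.01, 0.1 and 1 µg/ml) in the combination, against 227, 218 and 228 CPM with anti-LAG3. The fitted difference at 1 µg/ml was -0.12 ± 0.07 (SE) log2 and did not pass the test (adjusted p = 0.34). CD274, the gene of PDL1 (plus strand of chromosome 9, 5450503 to 5470566), stood at 85.1, 94.9 and 97.7 CPM in the combination, against 90.1, 81.1 and 82.6 CPM with anti-LAG3. The combination was higher at 0.1 and 1 µg/ml and lower at 0.01 µg/ml. In CD274 the fitted difference at 1 µg/ml was 0.29 ± 0.07 log2 (adjusted p = 0.0085), and without the 1 µg/ml library of either arm it did not pass the test. LAG3 had 0 to 1 counts in each of the 6 libraries, where 3 counts are 0.0951 to 0.120 CPM. The label of the Jurkat cells as LAG3+ is thus not borne out by these counts, which are reads per gene symbol. Protein was not measured, so whether the cells carried LAG3 was not tested. No difference in LAG3 RNA could be measured.

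The number of genes called between the combination and anti-LAG3 was counted at each end of the dose range, in the slope and in the arm mean. EdgeR's quasi-likelihood test was fitted over 15535 genes in 12 libraries, with a slope on log10 dose in each arm, and genes with a Benjamini-Hochberg adjusted p under 0.05 were called. At 1 µg/ml, 478 genes were called higher in the combination (3.08% of those tested) and 622 lower (4%), 7.08% in all. At 0.01 µg/ml, 76 genes were called higher (0.489%) and 137 lower (0.882%), 1.37% in all. The slope on dose itself was called higher in the combination for 50 genes (0.322%) and lower for 69 (0.444%), 0.766% in all. Over all 3 doses, the arm mean was called higher for 405 genes (2.61%) and lower for 488 (3.14%), 5.75% in all. The counts rest on single libraries. At 0.01 µg/ml, 0 genes were called without the combination library at that dose. In the slope, 8 were called without the anti-LAG3 library at 0.01 µg/ml. At 1 µg/ml, 76 genes were called without the anti-LAG3 library at 1 µg/ml, and 106 without the combination library at 1 µg/ml, when the fitted value is extrapolated from the lower doses in that arm. Without that combination library 193 genes were called at 0.01 µg/ml, so the order of the counts at both doses turned round. In a fit with the marker balance as a covariate, 49 genes were called at 1 µg/ml, 42 at 0.01 µg/ml and 78 in the slope.

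**Figure D1:**
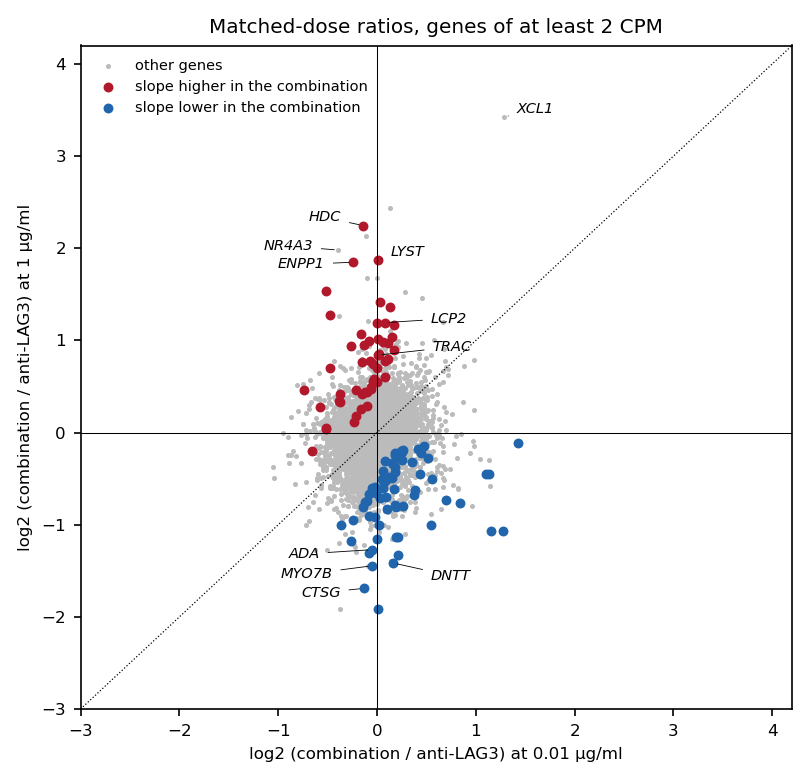
Each point is 1 of 11577 genes of at least 2 CPM, with the log2 ratio of the combination to anti-LAG3 at 0.01 µg/ml across and at 1 µg/ml up, 1 library on each side of each ratio. Red and blue points had a dose slope called higher or lower in the combination; they spread along the vertical axis, with LYST, ENPP1 and HDC among the highest and ADA, MYO7B and CTSG among the lowest, and most lie near 0 on the horizontal axis.

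Among the 11577 genes of at least 2 CPM, the combination library was at least 1.5-fold above the anti-LAG3 library at 1 µg/ml for 143 genes (1.24%) and at least 1.5-fold below it for 243 (2.1%). At 0.1 µg/ml these counts were 163 (1.41%) and 107 (0.924%), and at 0.01 µg/ml 67 (0.579%) and 59 (0.51%). These are ratios of 1 library to 1 library, with no test. The SD of the log2 ratio over these genes was 0.187 at 0.01 µg/ml, 0.219 at 0.1 µg/ml and 0.245 at 1 µg/ml. The 50 genes with a higher slope had a median log2 ratio of -0.093, 0.305 and 0.758 at the 3 doses, low to high. The 69 with a lower slope had 0.178, -0.272 and -0.662. Within the combination arm all 50 were higher at 1 than at 0.01 µg/ml and all 69 lower, whereas with anti-LAG3 alone 38 of the 50 were higher at 1 than at 0.01 µg/ml and 21 of the 69 lower. These values describe genes picked by the slope and are no test of it. Among called genes of at least 2 CPM, the 6 largest slope rises were HDC, ENPP1, SCG2, LYST, LYPD3 and GNG4. The 6 largest slope falls were EEF1A1P11, RPL13AP25, RP11-973H7.4, RPS7P1, DNTT and MTND2P28.

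The gene lists here and below were chosen with earlier results of these data known, so the shares called in them are descriptions and no test. Of 46 tested genes that the TCR switches on early, 15 were called higher and 1 lower in the combination at 1 µg/ml, against 3.08% and 4% of all genes, and 30 did not pass the test. Their median fitted difference was 0.18 log2, against -0.002 log2 over all genes tested. In single matched-dose ratios, 21 of the 46 were above 1 at 0.01 µg/ml, 35 at 0.1 µg/ml and 35 at 1 µg/ml, against 52.1%, 49.9% and 49.8% of all genes. The arm mean was called higher for 2, TNFAIP3 and ZFP36L1, and lower for 0. Without the combination library at 1 µg/ml, 1 of the 46 was called higher at that dose, without the anti-LAG3 library 3, and with the marker balance as a covariate 4.

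CD69 (minus strand, chromosome 12 from 9752486 to 9760901), an early activation antigen of lymphocytes, had 13.6, 27.2 and 52.1 CPM (0.01, 0.1 and 1 µg/ml) in the combination. With anti-LAG3 it stood at 12.1, 19.5 and 28.1 CPM. The combination was higher at every dose, and the gap widened with dose: the fitted difference at 1 µg/ml was 0.88 ± 0.10 log2 (adjusted p = 1.5e-06), and the slope was steeper by 0.36 ± 0.09 log2 per 10-fold dose (adjusted p = 0.038). The arm mean did not pass the test (0.57 ± 0.33 log2, adjusted p = 0.38). The call at 1 µg/ml was lost without the anti-LAG3 library at 1 µg/ml, the slope was called in 7 of the 12 fits that each left out 1 library, and the adjusted p at 1 µg/ml was 0.54 with the marker balance as a covariate.

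EGR1 (plus strand, chromosome 5 from 138465490 to 138469315), an immediate early transcription factor with zinc fingers, stood at 19.7, 41.2 and 82.4 CPM in the combination and 16.7, 31.5 and 52.1 CPM with anti-LAG3. Both arms rose with dose, and the fitted difference at 1 µg/ml was 0.65 ± 0.09 log2 (adjusted p = 2.3e-05). Its slope was steeper in the combination by 0.22 ± 0.07 log2 per 10-fold dose, which did not pass the test (adjusted p = 0.22). EGR2 and EGR3, of the same family, were higher at 1 µg/ml by 0.75 ± 0.20 log2 (adjusted p = 0.022) and 0.75 ± 0.17 log2 (adjusted p = 0.0063). EGR2 stood at 10.7 CPM in the combination and 6.18 CPM with anti-LAG3 at that dose, and EGR3 at 17.2 and 10.7 CPM. The calls of EGR1, EGR2 and EGR3 were lost without the 1 µg/ml library of either arm.

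NR4A3 (plus strand, chromosome 9 from 99821855 to 99866891), an orphan nuclear receptor induced by antigen receptors, stood at 1.91, 5.39 and 39.4 CPM in the combination and 2.53, 3.51 and 9.92 CPM with anti-LAG3. The combination library at 1 µg/ml stood far above the other 5. The fitted difference at 1 µg/ml was 1.98 ± 0.25 log2 (adjusted p = 0.00079), and it was 0.71 and did not pass the test without that library. NR4A1 stood at 7.40, 16.0 and 45.9 CPM in the combination and 8.26, 9.34 and 24.5 CPM with anti-LAG3, and the fitted difference was 0.98 ± 0.21 log2 (adjusted p = 0.031). That call was lost without the combination library at 1 µg/ml and without each of the 3 isotype libraries.

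NFATC1, a transcription factor released by calcineurin, stood at 62.4, 69.1 and 92.9 CPM in the combination and 59.1, 56.8 and 61.3 CPM with anti-LAG3. It was higher at 1 µg/ml by 0.58 ± 0.08 log2 (adjusted p = 3.7e-05). ZFP36L1 (minus strand, chromosome 14 from 68787660 to 68796253), which promotes the decay of AU-rich mRNAs, stood at 78.6, 83.8 and 94.9 CPM in the combination and 65.0, 64.4 and 67.8 CPM with anti-LAG3. Its groups did not overlap, and it was among the 3 genes with the smallest p in the arm mean (0.38 ± 0.05 log2, adjusted p = 0.00061). TNFAIP3 (A20), which restrains NF-kB, stood at 121, 137 and 155 CPM in the combination and 115, 117 and 129 CPM with anti-LAG3, 0.28 ± 0.06 log2 higher at 1 µg/ml (adjusted p = 0.0041). The other early genes called higher were PHLDA1, DUSP4, JUND, SLA, CRTAM and IL2RA. HES4, a HES family transcription factor, was called lower: it stood at 24.0, 19.9 and 12.1 CPM in the combination and 28.9, 32.7 and 27.3 CPM with anti-LAG3 (-1.15 ± 0.12 log2 at 1 µg/ml, adjusted p = 8.2e-07).

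**Figure D2:**
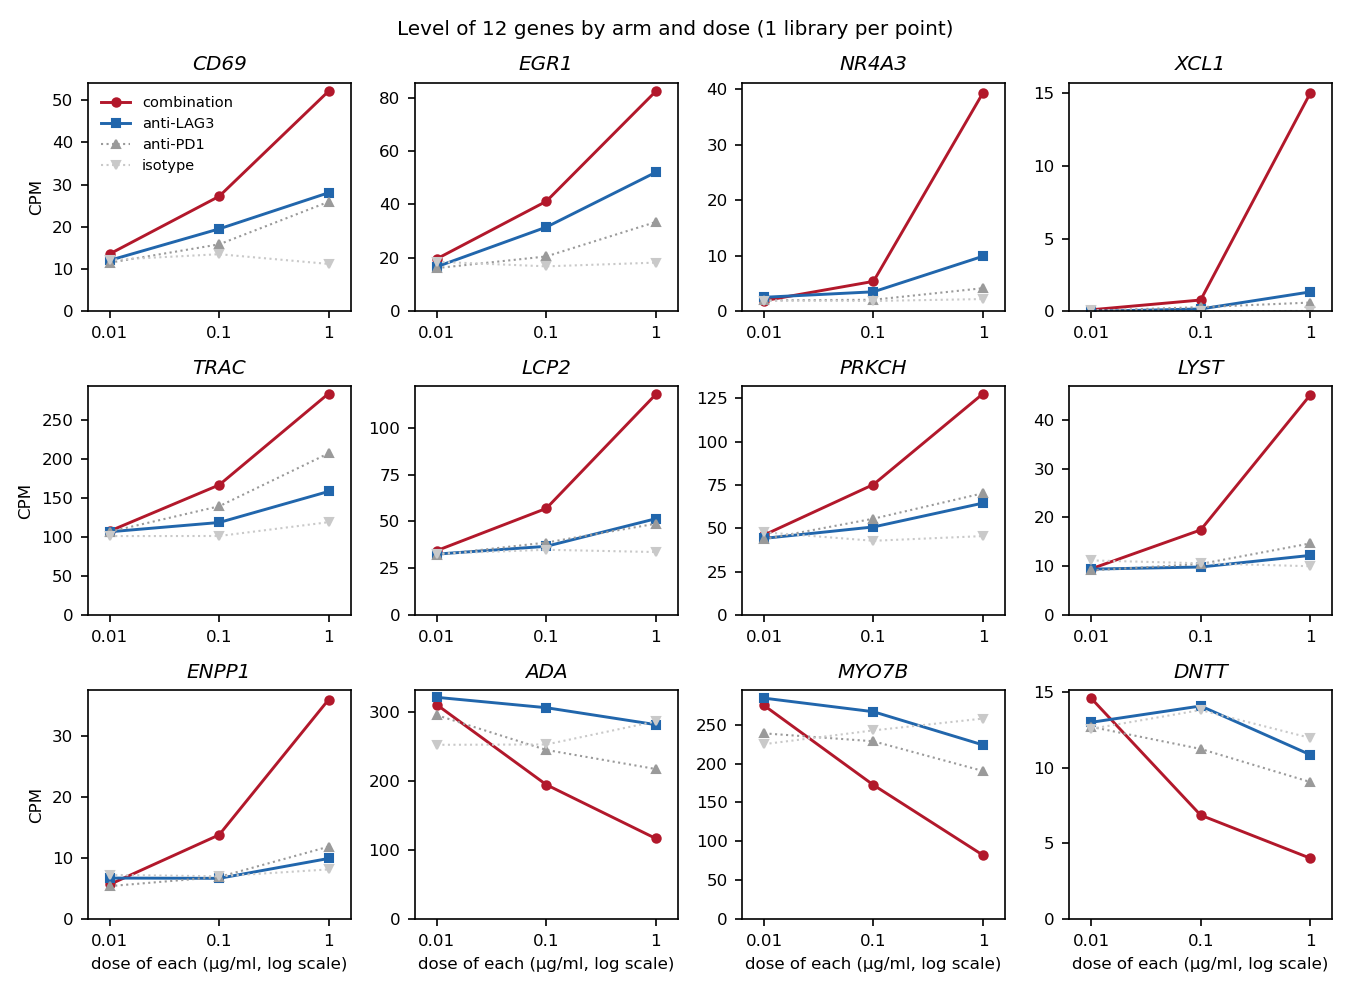
Levels in CPM (vertical, from 0) of 12 genes against the dose of each antibody (log scale), 1 library per point, for the combination (red), anti-LAG3 (blue), anti-PD1 (grey) and isotype (light grey). The combination separates from anti-LAG3 with dose: CD69 reached 52.1 CPM against 28.1 CPM at 1 µg/ml, and ADA stood at 117 CPM against 281 CPM.

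Promoters of 4 genes called higher at 1 µg/ml are shown because these genes are known targets of signals downstream of the TCR or lead the rises here. They were chosen after their values were seen. The sequences are RefSeq's (GRCh38.p14), read 5′ to 3′ on the gene's strand, and end at the last base before the annotated start or before the gene as GENCODE 29 draws it. EGR1 (chr5:138465229-138465478, plus strand) and IL2RA (chr10:6062371-6062617, minus strand) are shown with matches to the serum response element in capitals. GZMB (chr14:24634268-24634440, minus strand) and LYST (chr1:235883714-235883963, minus strand) are shown with matches to the AP-1 motif TGANTCA in capitals.
EGR1: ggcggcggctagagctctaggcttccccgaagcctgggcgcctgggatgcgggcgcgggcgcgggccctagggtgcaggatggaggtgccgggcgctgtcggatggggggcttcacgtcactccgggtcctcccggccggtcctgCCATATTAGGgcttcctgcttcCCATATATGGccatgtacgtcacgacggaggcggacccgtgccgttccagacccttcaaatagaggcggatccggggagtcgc
IL2RA: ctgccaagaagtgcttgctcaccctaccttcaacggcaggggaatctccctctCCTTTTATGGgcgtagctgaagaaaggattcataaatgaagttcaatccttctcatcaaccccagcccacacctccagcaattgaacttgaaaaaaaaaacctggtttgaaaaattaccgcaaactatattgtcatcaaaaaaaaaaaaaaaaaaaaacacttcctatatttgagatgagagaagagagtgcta
GZMB: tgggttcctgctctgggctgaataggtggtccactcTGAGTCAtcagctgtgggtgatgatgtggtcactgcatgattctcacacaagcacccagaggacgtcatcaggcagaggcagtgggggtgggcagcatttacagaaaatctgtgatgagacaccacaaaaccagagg
LYST: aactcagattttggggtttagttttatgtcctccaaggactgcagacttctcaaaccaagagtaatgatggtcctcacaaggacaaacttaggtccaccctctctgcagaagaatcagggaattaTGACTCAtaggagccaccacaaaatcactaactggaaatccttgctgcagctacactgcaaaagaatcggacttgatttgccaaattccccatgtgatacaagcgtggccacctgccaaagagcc

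Both strands were searched over the 250 bases before each start, and overlapping matches were counted as found. The serum response element was in 1.16% of the 35116 promoters in the table, and EGR1 had 2 matches and IL2RA 1. TGANTCA was in 6.57% of them, with 1 match each in GZMB and LYST. Of 347 genes called higher at 1 µg/ml with a promoter in the table, 2.88% had a serum response element and 6.34% a TGANTCA, against 1.53% and 6.13% of the 10137 tested genes with a promoter. Of 450 genes called lower, 3.11% and 4.89% had them. The EGR motif GCGNGGGCG was in 20.2% of the promoters of genes called higher, 20.2% of those of genes called lower and 17.5% of all tested. These shares are descriptions of letters in a window and not of binding.

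Chemokine and interleukin 2 receptor genes were among the largest differences. Of 17 tested cytokine and chemokine genes, 4 were called higher at 1 µg/ml, against 3.08% of all genes, and 0 lower. XCL1 (plus strand, chromosome 1 from 168576473 to 168582077), a chemokine of activated T and NK cells, had 3, 21 and 383 counts at 0.01, 0.1 and 1 µg/ml in the combination. With anti-LAG3 it had 0, 4 and 42 counts. At 1 µg/ml this was 15.0 CPM in the combination and 1.33 CPM with anti-LAG3, and the fitted difference was 3.44 ± 0.32 log2 (adjusted p = 8.9e-08). XCL2, a near-identical copy whose reads may be split with XCL1, had 0, 22 and 175 counts in the combination and 2, 6 and 19 with anti-LAG3. Both calls were lost without the 1 µg/ml library of either arm. IL16 and CCL22 were the other 2 called higher. IL2 and IFNG had 0 to 4 counts per library and were not tested.

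IL2RA (minus strand, chromosome 10 from 6010689 to 6062370), the alpha chain of the high-affinity interleukin 2 receptor, stood at 1.32, 2.25 and 8.65 CPM in the combination and 1.32, 1.72 and 2.66 CPM with anti-LAG3. The arms were level at 0.01 µg/ml and apart at 1 µg/ml, with a fitted difference of 1.62 ± 0.26 log2 (adjusted p = 0.00023). Among 23 tested genes of the interleukin 2 receptor and STAT5, JAK1, IL2RA, GZMB, JAK3 and IL2RB were called higher, and CCND3 and SOCS2 lower. Over all genes, 3.08% were called higher and 4% lower at 1 µg/ml. GZMB, which encodes granzyme B, stood at 0.799, 1.77 and 6.69 CPM in the combination and 0.679, 1.08 and 3.33 CPM with anti-LAG3 (1.01 ± 0.27 log2 at 1 µg/ml, adjusted p = 0.022). CRTAM (plus strand, chromosome 11 from 122838500 to 122872639), an adhesion receptor of activated lymphocytes, stood at 0.348, 1.63 and 8.45 CPM in the combination and 0.377, 0.958 and 2.60 CPM with anti-LAG3 (1.70 ± 0.27 log2, adjusted p = 0.00024). The calls of IL2RA, GZMB and CRTAM were lost without the 1 µg/ml library of either arm, and that of GZMB also without either of the other anti-LAG3 libraries.

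Genes of the TCR and of its proximal signalling split in both directions. Of 34 tested, 6 were called higher and 8 lower at 1 µg/ml, against 3.08% and 4% of all genes, and their median was 0.01 log2. Those that were higher include the genes of the TCR alpha chain (TRAC), the costimulator CD28, the kinase PRKCH (protein kinase C eta) and the adaptors LCP2 (SLP-76) and SH2D2A. The 8 that were lower encode the CD3 chains CD3D, CD3E, CD3G and CD247, the TCR beta constant region TRBC2, the kinase LCK, the adaptor GRAP2 (GADS) and THEMIS, a regulator of TCR signals in thymocytes. Of the 34, SH2D2A, LCP2, TRAC and PRKCH were among those that also had a higher dose slope, and THEMIS and GRAP2 a lower one, against 0.322% and 0.444% of all genes.

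LCP2 (minus strand, chromosome 5 from 170246237 to 170298227) stood at 34.4, 56.9 and 118 CPM in the combination and 32.6, 36.7 and 51.4 CPM with anti-LAG3. Its fitted difference at 1 µg/ml was 1.19 ± 0.08 log2 (adjusted p = 9e-10), and its slope was steeper by 0.56 ± 0.07 log2 per 10-fold dose (adjusted p = 3.8e-05). PRKCH (plus strand, chromosome 14 from 61187559 to 61550976) stood at 46.2, 75.4 and 128 CPM in the combination and 44.3, 50.9 and 64.6 CPM with anti-LAG3 (0.99 ± 0.07 log2 at 1 µg/ml, adjusted p = 9e-10). The ratio of the combination to anti-LAG3 was 1.06 for LCP2 and 1.04 for PRKCH at 0.01 µg/ml, and 2.29 and 1.98 at 1 µg/ml.

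TRAC (plus strand, chromosome 14 from 22547506 to 22552154) stood at 108, 167 and 284 CPM in the combination and 107, 119 and 159 CPM with anti-LAG3. The fitted difference was 0.86 ± 0.07 log2 at 1 µg/ml (adjusted p = 1.5e-08) and 0.03 log2 at 0.01 µg/ml (adjusted p = 0.9). The alpha chain variable segment TRAV8-4 followed the same course, at 53.6, 80.7 and 139 CPM in the combination and 53.0, 63.5 and 76.7 CPM with anti-LAG3 (0.83 ± 0.07 log2, adjusted p = 7.1e-09). LCP2, PRKCH, TRAC and TRAV8-4 were called at 1 µg/ml in all 12 fits that left out 1 library and with the marker balance as a covariate.

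The CD3 chains went the other way and by less. CD3E stood at 205, 169 and 152 CPM in the combination and 204, 188 and 198 CPM with anti-LAG3 (-0.37 ± 0.07 log2 at 1 µg/ml, adjusted p = 0.00097). CD3G stood at 99.6, 83.3 and 75.1 CPM in the combination and 94.0, 90.3 and 94.0 CPM with anti-LAG3 (-0.32 ± 0.07 log2, adjusted p = 0.0044). CD3D and TRBC2 were lower at 1 µg/ml by smaller amounts, -0.25 ± 0.07 and -0.23 ± 0.07 log2 (adjusted p = 0.03 and 0.037), and neither was called once GC content and length were corrected for. LCK stood at 306, 280 and 273 CPM in the combination and 342, 349 and 355 CPM with anti-LAG3, so its groups did not overlap (-0.39 ± 0.06 log2 at 1 µg/ml, adjusted p = 8e-05). THEMIS stood at 66.7, 49.7 and 39.1 CPM in the combination and 63.7, 66.5 and 59.4 CPM with anti-LAG3 (-0.65 ± 0.08 log2, adjusted p = 1.1e-05). The calls of CD3E, CD3G, CD247 and GRAP2 were lost without the 1 µg/ml library of either arm, and those of LCK, CD3D and TRBC2 without at least the anti-LAG3 one, while THEMIS was called in all 12 fits that left out 1 library. With the marker balance as a covariate none of the 8 was called, and CD3D had a difference of 0.08 (adjusted p = 1). Most of these genes are also T markers, from which the balance is computed, so the fit with that covariate is no test of them. Of the 25 tested T markers, 6 were called higher and 11 lower at 1 µg/ml, against 3.08% and 4% of all genes.

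Inhibitors that act as feedback on TCR and MAP kinase signalling were mostly higher where they differed. Of 34 tested, 10 were called higher and 2 lower at 1 µg/ml, against 3.08% and 4% of all genes, with a median of 0.16 log2. In single matched-dose ratios at 0.01 µg/ml, 10 of the 34 (29.4%) were above 1, against 52.1% of all genes. UBASH3B, a phosphatase that acts on tyrosine kinases of the TCR pathway, stood at 87.7, 125 and 150 CPM in the combination and 89.4, 90.9 and 100 CPM with anti-LAG3 (0.64 ± 0.07 log2, adjusted p = 7.9e-07). It was called in all 12 fits that left out 1 library. CD5, a surface receptor that damps TCR signals, stood at 25.3, 34.3 and 53.8 CPM in the combination and 28.0, 25.7 and 31.6 CPM with anti-LAG3 (0.80 ± 0.10 log2, adjusted p = 5.4e-06), a call lost without the combination library at 1 µg/ml. CD6, PTPN22, CBL, CBLB, DOK2, DUSP4, SLA and SPRY2 were the others called higher, and RCAN1, an inhibitor of calcineurin, and SOCS2 were called lower. SLA was called in only 2 of the 12 fits that left out 1 library: its fitted difference was 0.43 ± 0.12 log2 (adjusted p = 0.042), and -0.17 without the combination library at 1 µg/ml. With the marker balance as a covariate, 2 of the 34 were called higher.

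Checkpoint and costimulatory genes were called in 1 direction. Of 29 tested, 6 were higher at 1 µg/ml and 0 lower, against 3.08% and 4% of all genes. The 6 were CD28, ICOS, CD96, CD40LG, CD274 and CD226. CD226, an activating receptor (DNAM-1), stood at 7.89, 12.8 and 25.2 CPM in the combination and 7.01, 8.14 and 11.2 CPM with anti-LAG3. It differed by 1.17 ± 0.13 log2 at 1 µg/ml (adjusted p = 1.2e-06) and had a steeper slope (0.51 ± 0.11 log2 per 10-fold dose, adjusted p = 0.022). ICOS stood at 0.556, 1.77 and 5.09 CPM in the combination and 0.528, 0.878 and 2.03 CPM with anti-LAG3 (1.38 ± 0.29 log2, adjusted p = 0.0042). CD40LG, the ligand through which T cells signal to CD40 on B cells, stood at 0.487, 0.776 and 3.36 CPM in the combination and 0.528, 0.479 and 0.539 CPM with anti-LAG3 (2.55 ± 0.45 log2, adjusted p = 0.0008). For CD40LG the combination library at 1 µg/ml stood alone above the other 5. All 6 calls were lost without that library, CD226 at an adjusted p of 0.10, and those other than CD226 also without the anti-LAG3 library at 1 µg/ml. None of the 6 genes was called with the marker balance as a covariate.

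**Figure D3:**
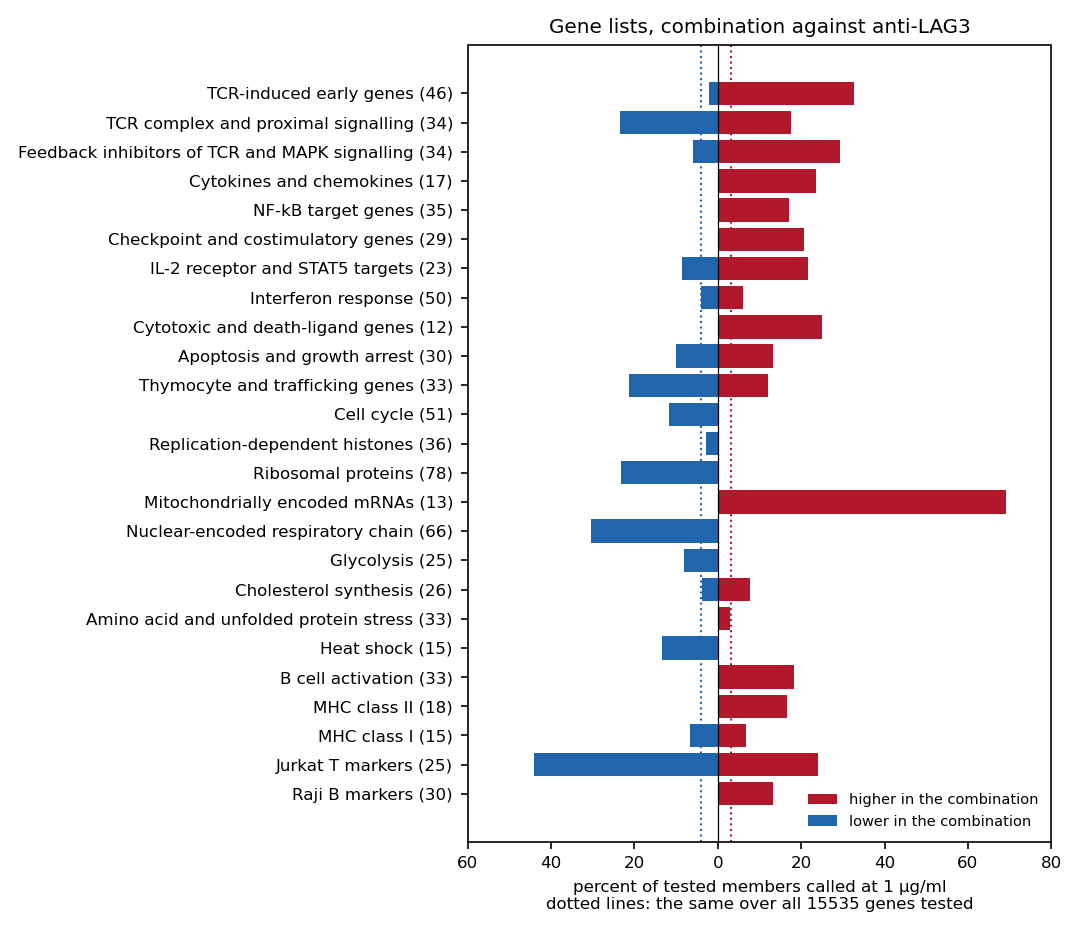
For 25 gene lists (number of tested members in brackets), the percent of members called higher (red, to the right) or lower (blue, to the left) in the combination than with anti-LAG3 at 1 µg/ml; dotted lines mark the same percent over all genes, 3.08% and 4%. TCR-induced early genes reach 15 of 46 on the right, and mitochondrially encoded mRNAs 9 of 13, while nuclear-encoded respiratory chain genes reach 20 of 66 on the left. The lists were chosen with earlier results of these data known.

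Large rises at 1 µg/ml were also seen outside those lists. LYST (minus strand, chromosome 1 from 235661041 to 235883640), a regulator of lysosome-related organelles, stood at 9.49, 17.4 and 45.0 CPM in the combination and 9.43, 9.86 and 12.2 CPM with anti-LAG3. With anti-LAG3 alone it was 1.30-fold higher at 1 than at 0.01 µg/ml, and in the combination 4.75-fold. The fitted difference at 1 µg/ml was 1.86 ± 0.12 log2 (adjusted p = 3.4e-10). ENPP1 (plus strand, chromosome 6 from 131808016 to 131895155), an enzyme that hydrolyses extracellular nucleotides, stood at 5.67, 13.8 and 35.9 CPM in the combination and 6.71, 6.67 and 9.92 CPM with anti-LAG3 (1.92 ± 0.14 log2, adjusted p = 9e-10).

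HDC (minus strand, chromosome 15 from 50241947 to 50266026), histidine decarboxylase, which makes histamine, stood at 1.60, 5.10 and 15.8 CPM in the combination and 1.77, 2.44 and 3.26 CPM with anti-LAG3 (2.27 ± 0.19 log2, adjusted p = 1.2e-08). The long noncoding RNA CASC15 (plus strand, chromosome 6 from 21664772 to 22368328) stood at 34.8, 55.6 and 99.6 CPM in the combination and 31.2, 38.4 and 48.4 CPM with anti-LAG3 (1.02 ± 0.07 log2, adjusted p = 9e-10). BACH2, a transcriptional repressor of lymphocytes, stood at 20.9, 32.6 and 52.9 CPM in the combination and 22.96, 22.1 and 27.3 CPM with anti-LAG3 (1.00 ± 0.09 log2, adjusted p = 4.9e-08). SEMA4D, a semaphorin of T cells, stood at 103, 152 and 195 CPM in the combination and 97.8, 99.7 and 113 CPM with anti-LAG3 (0.84 ± 0.07 log2, adjusted p = 1.5e-08). For LYST, ENPP1, HDC, CASC15, BACH2 and SEMA4D the fitted difference at 0.01 µg/ml did not pass the test. Among called genes of at least 2 CPM, the largest fitted rises at 1 µg/ml were XCL1, DMBT1, HDC, ATP9A, NR4A3, ENPP1, LYST, SCG2, CRTAM and IL2RA. This ranking was added after the values were seen.

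By p, the fall at 1 µg/ml was clearest for ADA. ADA (minus strand, chromosome 20 from 44619522 to 44652233), adenosine deaminase, which breaks down adenosine and is abundant in immature T cells, stood at 310, 194 and 117 CPM in the combination. With anti-LAG3 it stood at 321, 306 and 281 CPM. The ratio of the combination to anti-LAG3 was 0.966 at 0.01 µg/ml, 0.636 at 0.1 µg/ml and 0.415 at 1 µg/ml. The fitted difference at 1 µg/ml was -1.27 ± 0.06 log2 (adjusted p = 5.2e-13) and the slope was lower by -0.61 ± 0.05 log2 per 10-fold dose (adjusted p = 1.6e-08). ADA was called at 1 µg/ml and in the slope in all 12 fits that left out 1 library, and with the marker balance as a covariate (adjusted p = 1.3e-05 at 1 µg/ml). MYO7B was the only other gene for which the slope call held in all 12 of these fits.

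MYO7B (plus strand, chromosome 2 from 127535802 to 127637729), an unconventional myosin, stood at 275, 172 and 82.2 CPM in the combination and 284, 267 and 224 CPM with anti-LAG3 (-1.39 ± 0.08 log2 at 1 µg/ml, adjusted p = 7.1e-09). CTSG (minus strand, chromosome 14 from 24573522 to 24576260), the serine protease cathepsin G, stood at 31.0, 20.7 and 10.7 CPM in the combination and 34.0, 31.2 and 34.6 CPM with anti-LAG3 (-1.57 ± 0.12 log2, adjusted p = 2e-09). PMEPA1 (minus strand, chromosome 20 from 57648392 to 57711536), an inhibitor of TGF-beta signalling, stood at 75.7, 52.9 and 26.1 CPM in the combination and 79.8, 71.8 and 64.6 CPM with anti-LAG3 (-1.19 ± 0.09 log2, adjusted p = 7.4e-09). For MYO7B, CTSG and PMEPA1 the combination was below anti-LAG3 at every dose, by little at 0.01 µg/ml.

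Genes of immature thymocytes were called in both directions. Of 33 tested thymocyte and trafficking genes, 7 were called lower at 1 µg/ml and 4 higher, against 4% and 3.08% of all genes. DNTT (plus strand, chromosome 10 from 96304396 to 96338564), terminal deoxynucleotidyl transferase, which adds bases at V(D)J joints, stood at 14.6, 6.87 and 4.03 CPM in the combination and 13.0, 14.1 and 10.9 CPM with anti-LAG3 (-1.59 ± 0.17 log2, adjusted p = 7.8e-07). RAG2, of the V(D)J recombinase, stood at 6.71, 3.14 and 1.88 CPM in the combination and 6.98, 5.39 and 3.87 CPM with anti-LAG3 (-1.15 ± 0.23 log2, adjusted p = 0.0025). RAG1 differed by -0.42 ± 0.28 log2 and did not pass the test (adjusted p = 0.41). The lipid antigen-presenting genes CD1A, CD1D and CD1E, the transcription factor BCL11B and ADA were the others called lower, and RUNX3, LEF1, TCF7 and TOX the 4 called higher. DNTT was called in all 12 fits that left out 1 library but not with the marker balance as a covariate (adjusted p = 0.27). The calls of RAG2, CD1A, CD1E and BCL11B were lost without the 1 µg/ml library of either arm, and that of CD1D without the combination one.

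In all, 35 of the 1100 genes called at 1 µg/ml were called in each of the 12 fits that left out 1 library, 15 of them higher and 20 lower. All 35 were also called once GC content and length were corrected for, and 16 of the 35 with the marker balance as a covariate as well. Those 16 were LYST, ENPP1, HDC, LCP2, PRKCH, TRAC, TRAV8-4, CASC15, BACH2 and GAS7, which were higher, and ADA, MYO7B, CTSG, PMEPA1, SLIT1 and VANGL1, which were lower. They were picked by their calls, so the count describes the fits and is no further test.

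In the arm means, with the doses pooled, the 3 smallest p were those of SIVA1, LAGE3 and ZFP36L1. SIVA1 (plus strand, chromosome 14 from 104753100 to 104768494), a proapoptotic protein, stood at 85.9, 93.8 and 79.1 CPM in the combination and 118, 120 and 108 CPM with anti-LAG3 (-0.42 ± 0.05 log2, adjusted p = 0.00025). LAGE3 (minus strand, chromosome X from 154477769 to 154479257), a subunit of the KEOPS complex that modifies tRNA, stood at 36.1, 39.4 and 37.8 CPM in the combination and 51.1, 52.4 and 52.3 CPM with anti-LAG3 (-0.46 ± 0.06 log2, adjusted p = 0.00025). The groups did not overlap for either gene, and neither slope passed the test. The isotype libraries stood at 83.8 to 92.2 CPM for SIVA1 and 37.6 to 40.6 CPM for LAGE3. SIVA1, LAGE3 and ZFP36L1 were called in all 12 fits that left out 1 library.

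Transcript composition moved with the arm means. The 405 genes called higher had a median GC content of 42.8% and a median length of 8681 bases, and the 488 called lower 58.9% and 3150 bases, against 48.5% and 4421 bases over all genes tested. With GC content and length corrected for, 265 genes were called higher and 211 lower in the arm mean, and 287 of the 893 genes were among them. With the marker balance as a covariate 18 were called, and without the combination library at 0.1 µg/ml 47. The medians at 1 µg/ml were 45.6% for the genes called higher and 54.3% for those called lower. After the correction 528 and 558 genes were called at that dose, with 772 of the first 1100 among them. The part of composition in single arm-mean calls was not tested further.

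**Figure D4:**
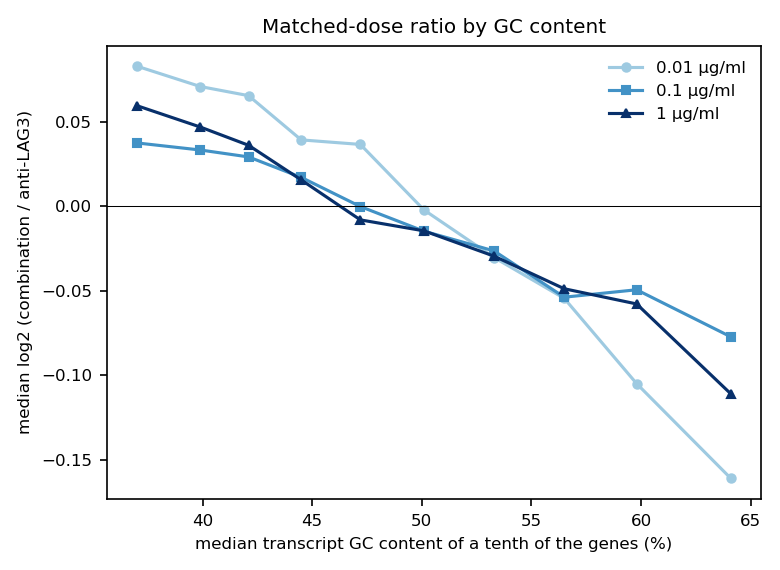
Median log2 ratio of the combination to anti-LAG3 (vertical) in 10 equal bins of the genes ordered by transcript GC content (horizontal, median percent of each bin), for 0.01, 0.1 and 1 µg/ml. At every dose the ratio is lower in the highest bin than in the lowest: 0.0831 in the lowest bin and -0.161 in the highest at 0.01 µg/ml, and 0.0597 and -0.111 at 1 µg/ml.

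The largest called rises in arm mean among genes of the same sign at every dose were XCL1, NPIPB4, PABPC1L, CRIPAK, PLCH1, LRRC37A4P, KCNQ1OT1, MT-TV, NBPF19 and ZFHX2. Besides XCL1, they include repeat-rich or multicopy genes whose reads may be split between copies (NPIPB4, LRRC37A4P, NBPF19), the noncoding RNA KCNQ1OT1 and a mitochondrial tRNA. KCNQ1OT1 stood at 3.61, 4.18 and 3.17 CPM in the combination and 2.49, 2.56 and 1.97 CPM with anti-LAG3 (0.64 ± 0.16 log2, adjusted p = 0.023), and was not called once GC content and length were corrected for (adjusted p = 0.21). The largest falls were DUSP9, PHLDA3, FNDC10, FGFR3, DLL3, MNX1-AS1, RIPK4, RTN4RL2, RASL10B and OPN3. PHLDA3, a p53 target that restrains AKT, stood at 3.65, 3.25 and 2.54 CPM in the combination and 6.07, 4.75 and 5.17 CPM with anti-LAG3 (-0.76 ± 0.16 log2, adjusted p = 0.0081), and it was called after that correction (adjusted p = 0.028).

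Respiratory chain genes of the mitochondrial and of the nuclear genome were called in opposite directions. Of 13 mitochondrially encoded mRNAs, 9 were higher and 0 lower in the combination at 1 µg/ml, against 3.08% and 4% of all genes, with a median of 0.537 log2. MT-ND5, a subunit of complex I, stood at 2742, 2477 and 2524 CPM in the combination and 1948, 1858 and 1439 CPM with anti-LAG3 (0.73 ± 0.07 log2 at 1 µg/ml, adjusted p = 5.7e-07), and at 2601 to 2807 CPM in the isotype libraries. Of 66 nuclear-encoded subunits, 20 were lower and 0 higher, with a median of -0.154 log2, against 4% and 3.08% of all genes. Against the same shares, 18 of 78 cytosolic ribosomal protein genes were lower and 0 higher, with a median of -0.148. NDUFA8, of complex I, stood at 52.5, 55.8 and 53.2 CPM in the combination and 60.2, 61.4 and 66.6 CPM with anti-LAG3 (-0.28 ± 0.07 log2, adjusted p = 0.016). With GC content and length corrected for 12 of the 66 and 14 of the 78 were lower. Without the anti-LAG3 library at 1 µg/ml, the library lowest in MT-ND5, 0 of the 13 mitochondrial mRNAs were called.

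The shares below are to be read against 3.08% of all genes called higher and 4% called lower at 1 µg/ml. Of 33 B cell activation genes, 6 were called higher (EGR1, BACH2, EGR2, NFKB2, CD69 and CCL22) and 0 lower. EGR1, EGR2 and CD69 are also counted among the early TCR genes, NFKB2 among NF-kB targets and CCL22 among chemokines. As RNA of both lines was read together, the line they came from was not tested. Of 30 Raji markers, 4 were called higher (PAX5, POU2AF1, CIITA and CD22) and 0 lower, with a median of 0.146 log2. CIITA, the master regulator of MHC class II, stood at 180, 196 and 188 CPM in the combination and 169, 160 and 152 CPM with anti-LAG3 (0.34 ± 0.07 log2, adjusted p = 0.0047), a call lost without the 1 µg/ml library of either arm. In the arm mean, 7 of the 30 Raji markers were called higher and 0 lower, against 2.61% and 3.14% of all genes. Of 18 MHC class II genes, 3 were higher and 0 lower. None of the 30 markers was called with the marker balance as a covariate, but the balance is computed from these same markers, so that fit is no test of them. Of 51 cell cycle genes, 6 were lower at 1 µg/ml and 0 higher. Of 35 NF-kB target genes, 6 were higher (REL, CFLAR, NFKB1, TNFAIP3, BIRC3 and NFKB2) and 0 lower. Of 50 interferon response genes, 3 were higher (6%: GBP2, GBP5 and MX2) and 2 lower (4%: LAMP3 and USP18), near the shares over all genes.

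The other comparison of adding anti-PD1, without anti-LAG3, shares no library with the one above. Anti-PD1 minus isotype, fitted at 1 µg/ml, had 82 genes called higher (0.528%) and 55 lower (0.354%), 0.882% in all. In the arm mean it had 325 called higher (2.09%) and 269 lower (1.73%), 3.82% in all. The difference between both differences, the combination minus anti-LAG3 less anti-PD1 minus isotype, was called at 1 µg/ml for 178 genes above 0 (1.15%) and 260 below (1.67%), 2.82% in all, for 242 and 203 once GC content and length were corrected for, for 7 with the marker balance as a covariate, and, leaving out the 1 µg/ml library of 1 arm, for 32 (combination), 18 (anti-LAG3), 22 (anti-PD1) and 10 (isotype). In the arm mean it was called above 0 for 1134 genes (7.3%) and below 0 for 1238 (7.97%), 15.3% in all. Its slope on dose was called for 0 genes by edgeR's quasi-likelihood test, with 1029 genes at an unadjusted p under 0.05, and for 0 by DESeq2, with 326.

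For TRAC, CD69, EGR1, SH2D2A and PRKCH, adding anti-PD1 gave a called rise at 1 µg/ml on both backgrounds. The calls on isotype rest on single libraries: over all genes, 0 were called without the anti-PD1 library at 1 µg/ml and 2 without the isotype one. TRAC rose by 0.86 ± 0.07 log2 on anti-LAG3 and by 0.81 log2 on isotype, with a difference of 0.05 ± 0.10 (adjusted p = 0.85). CD69 rose by 0.88 and 1.11 log2, with a difference of -0.23 ± 0.15 (adjusted p = 0.48), and EGR1 by 0.65 and 0.87 log2, with a difference of -0.22 ± 0.13 (adjusted p = 0.43). These misses do not show that the effects were alike.

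For LYST, ENPP1, LCP2, ADA, MYO7B, CTSG and DNTT the difference itself was called. LYST had 1.86 log2 on anti-LAG3 and 0.51 on isotype, a difference of 1.34 ± 0.18 (adjusted p = 0.00016). ADA had -1.27 log2 on anti-LAG3 and -0.39 on isotype, a difference of -0.88 ± 0.08 (adjusted p = 1.7e-06), called in all 12 fits that left out 1 library. The LYST difference was not called without the 1 µg/ml library of the combination or of isotype. For NFATC1, ZFP36L1 and HES4 the isotype background gave differences of 0.03, -0.06 and -0.06 log2 that did not pass the test, and the difference of both was called. With the marker balance as a covariate, MYO7B was the only gene of this paragraph whose difference was called. These differences are on the log2 scale.

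**Figure D5:**
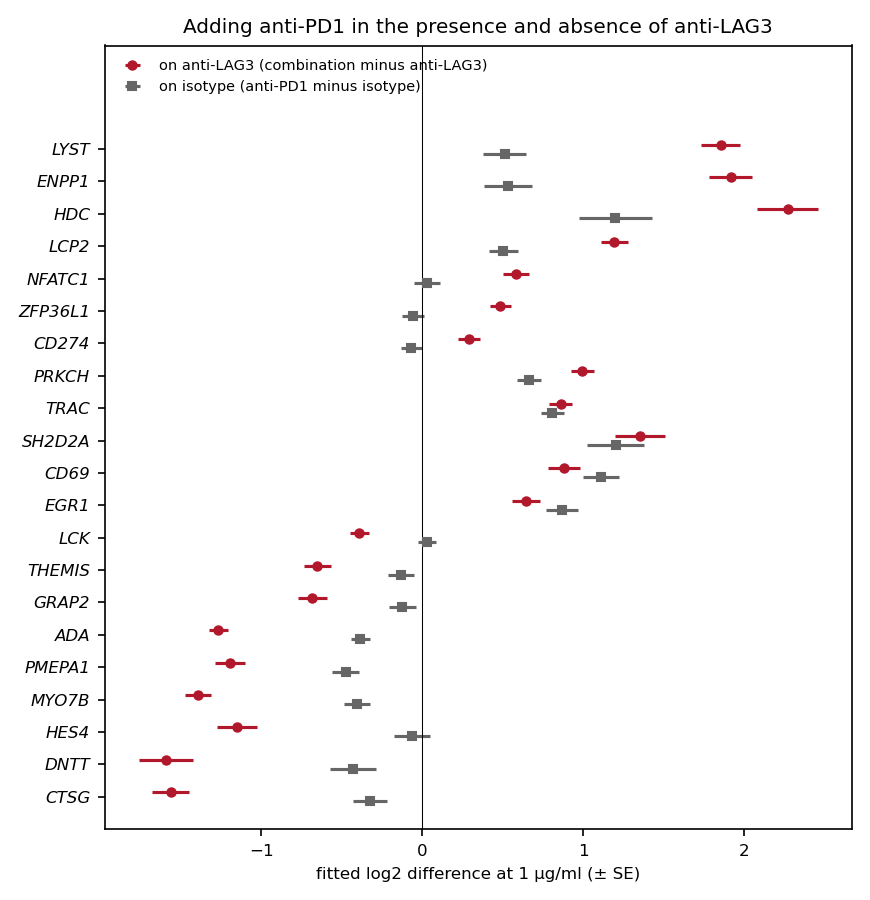
Fitted log2 difference at 1 µg/ml (horizontal, ± SE) made by adding anti-PD1 on anti-LAG3 (red circles, combination minus anti-LAG3) and on isotype (grey squares, anti-PD1 minus isotype) for 21 genes. The pairs lie close for TRAC (0.86 and 0.81) and apart for LYST (1.86 and 0.51) and ADA (-1.27 and -0.39).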

How the data were processed

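RNA from 12 co-cultures was sequenced, and the authors deposited whole-number read counts per gene symbol. The tools named are STAR 2.5.2b, Trimmomatic 0.36, Subread 1.5.2, featureCounts and DESeq2, with the build GRCh38, per the submitters' processing notes, which give no order or settings; whether counting used strand is not given in the sources used here. The deposited tables hold 4 further count columns and 36 per-sample columns within comparison tables that were not used.

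Of 55782 symbols, 19441 had no count in the 12 libraries, and 15535 passed edgeR's filterByExpr with a minimum count of 10. Library totals ran from 23593973 to 36581754, so 3 counts, taken as the floor, were 0.0838 to 0.128 CPM; floors cover counting error only. edgeR 4.0.16 (R 4.3.3) with TMM scaling and robust quasi-likelihood tests was fitted with arm and dose (6 residual degrees of freedom) for the arm means, and with a slope on log10 dose in each arm (4 residual degrees of freedom) for slopes and for fitted differences at 1 and 0.01 µg/ml. Benjamini-Hochberg adjustment ran over the 15535 genes, and an adjusted p under 0.05 was a call. The slope assumes a straight line over 3 doses. CPM are per library total multiplied by its TMM factor. The arm mean and slope tests were checked on simulated counts with a fixed spread and no shift in GC content, length or markers. The fitted differences at 1 and 0.01 µg/ml and the difference of differences were not simulated. GC content was known for 13697 tested genes (88.2%), and length for all. Genes without GC content were corrected for length, with the median over all genes in place of the GC term.

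A rule picked genes to name. In the arm mean it took the 10 largest called rises and falls of at least 2 CPM and of 1 sign at all doses, and the 3 smallest p. It also took the 6 largest of each sign in the slope and in the difference of differences, and list members with the smallest p. Not all genes picked for the difference of differences or from the lists are named above. Other genes named at 1 µg/ml were chosen after their values were seen. The members, gene lists and markers were chosen with earlier results of these data known. Alternatives used DESeq2 1.42.0, other scaling and filters, a marker covariate, a gene length offset, the 6 libraries alone and each library left out. The correction for GC content and length, and both fits of adding anti-PD1 at 1 µg/ml, were chosen after seeing the data. The values of 1 listed gene are not reported here.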

Additional observations from a re-analysis of the deposited data

Results flagged for a closer look

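The effect of adding anti-PD1 differed between the anti-LAG3 and isotype backgrounds, by the test of the difference itself (edgeR's quasi-likelihood test), for 2372 genes in the arm mean (15.3% of those tested) and for 438 at 1 µg/ml (2.82%). The genes called in the arm mean above 0 had a median GC content of 42.4%, and those below 0 of 58.6%. With GC content and length corrected for, 1155 were called in the arm mean, 802 of the 2372 among them. The part of composition in single genes was not tested further.

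Differences above 0 at 1 µg/ml, in log2, were called for LYST (1.34), ENPP1 (1.39), LCP2 (0.69), ZFP36L1 (0.54), NFATC1 (0.55) and CD274 (0.36). Differences below 0 were called for ADA (-0.88), MYO7B (-0.99), CTSG (-1.24), PMEPA1 (-0.72), DNTT (-1.16), HES4 (-1.09), LCK (-0.42), THEMIS (-0.52) and GRAP2 (-0.56). With the marker balance as a covariate, MYO7B was the only gene of these whose difference was still called (adjusted p = 0.03). The other 14 were not called, ADA among them (adjusted p = 0.14). The groups have 3 libraries each, so no library was tested as standing apart from its group.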

How the results depend on the processing

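The counts of called genes moved under several alternatives; the cause was not tested. With GC content and length corrected for, 161 genes were called in the slope, 1086 at 1 µg/ml and 445 for the difference at 1 µg/ml. Each count is within 1.5 times the reported one, but the genes were not all the same. Among them were 108 of the 119 first called in the slope, 772 of the 1100 at 1 µg/ml and 244 of the 438 for the difference. With the marker balance as a covariate, 18 genes were called in the arm mean, 78 in the slope, 49 at 1 µg/ml, 42 at 0.01 µg/ml, 42 for anti-PD1 minus isotype at 1 µg/ml, and 726 and 7 for the difference of differences in the arm mean and at 1 µg/ml. After the GC content and length correction there were 476 in the arm mean (265 higher, 211 lower), 73 at 0.01 µg/ml, 21 and 228 for anti-PD1 minus isotype in the arm mean and at 1 µg/ml, and 1155 and 4 for the difference of differences in the arm mean and the slope. With length alone there were 322 for anti-PD1 minus isotype in the arm mean and 3 for the difference in slope. DESeq2 called 57 in the slope, 434 at 1 µg/ml, 115 at 0.01 µg/ml, 69 for anti-PD1 minus isotype at 1 µg/ml and 143 for the difference at 1 µg/ml. With no filter there were 207 in the slope, 250 for anti-PD1 minus isotype at 1 µg/ml and 14 for the difference in slope. The 6 libraries alone gave 435 at 0.01 µg/ml.

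Leaving out 1 library at a time gave 47 to 1488 genes in the arm mean, 8 to 181 in the slope, 76 to 1466 at 1 µg/ml and 0 to 394 at 0.01 µg/ml. It gave 0 to 1044 and 0 to 194 for anti-PD1 minus isotype in the arm mean and at 1 µg/ml, and 1434 to 2969, 0 to 5 and 10 to 784 for the difference in the arm mean, the slope and at 1 µg/ml. The marker difference of -0.166 lay between -0.194 and -0.135. At 1 µg/ml, SLA ranged from -0.17 to 0.53 and TNFSF10 from -0.25 to 1.14, each below 0 without the combination library at that dose, and CD3D was 0.076 with the marker covariate. The labels give no replicate numbers; libraries were paired by dose, which the arm mean fit has as its replicate block, and with no replicate block 743 genes were called in the arm mean.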

Other observations

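Doses differ between the following values, which are given side by side with no comparison. At 0.1 µg/ml the combination had 27.2 CPM of CD69, 167 CPM of TRAC, 56.9 CPM of LCP2 and 41.2 CPM of EGR1. At 1 µg/ml anti-LAG3 had 28.1 CPM of CD69, 159 CPM of TRAC, 51.4 CPM of LCP2 and 52.1 CPM of EGR1. These are few of the genes named above, and by the values given there ADA, NR4A3 and LYST lay further apart in this pairing.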
